A study of Homo sapiens with 6 samples.

Results

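Nuclear receptors are transcription factors that share a zinc-finger DNA-binding domain and a ligand-binding domain, and their autosomal genes are described here in HCT116 cells after 5aza. The genes were taken from a list of 43 symbols, and 37 of them have a row among the 16715 genes of the deposited table. RARA, RORB, NR1H4, RXRG, NR2F6 and ESRRG were not analysed here. By subfamily, 15 of the 37 genes belong to NR1, 9 to NR2, 7 to NR3, 3 to NR4, 2 to NR5 and 1 to NR6.

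HCT116 is an established human colorectal carcinoma line, and passages 7 to 10 were used in both groups. The 3 5aza libraries came from cells given 5 µM 5aza for 48 hours and then fresh medium for another 48 hours, and the 3 control libraries from cells named only as control. Drugs of the 5aza family are taken up into DNA as cytidine analogues and bind DNA methyltransferases covalently, which lowers methylation over later divisions. The titles name the agent 5aza and the column codes name it DAC, so which compound of the family was used cannot be told. Nothing in the labels says that the replicates were separate cultures, so p-values measure the spread between these libraries, which may be technical.

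The receptors differ in how they are switched on. The thyroid hormone, retinoic acid, vitamin D, oestrogen and corticosteroid receptors bind a hormone or vitamin. PPARs, LXRs, FXR, PXR and CAR sense fatty acids, oxysterols, bile acids and foreign compounds, and others such as the COUP-TF and NR4A receptors are orphans with no established physiological ligand. Many NR1 receptors bind DNA as a pair with an RXR, while steroid receptors of NR3 bind as homodimers. In the intestine HNF4A and HNF4G maintain enterocyte genes, and the promoters of ESR1 and RARB are known to be methylated in many carcinomas.

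Values are FPKM, fragments per kilobase of transcript scaled to sequencing depth, so levels of different genes are compared per length. Read depth was not given in the sources used here, so no counting interval can be given. The whole table summed to 577735 to 592051 FPKM in 5aza libraries and 601916 to 628399 FPKM in control libraries. Of 12 tested epithelial markers 5 rose and 3 fell, led by KRT20 (3.07 and 0.774 FPKM in 5aza and control libraries) and CDH1 (16.2 and 12.7 FPKM) among rises and by CLDN3 (14.4 and 18.4 FPKM) among falls. The falls numbered 1 under 5 of the 14 alternatives. For all genes tested the shares were 10.6% for rises and 13.1% for falls. Of the markers of other cell types, 6 of 8 for blood cells, 5 of 8 for fibroblasts and 6 of 7 for endothelial cells stayed under 0.5 FPKM in all 6 libraries. Their summed levels in 5aza and control libraries were 6.02 to 6.75 and 3.27 to 4.51 FPKM for blood, mostly CD68 (5.23 and 3.5 FPKM), and 32.2 to 33.9 and 31.4 to 31.7 FPKM for fibroblasts, mostly PDGFRA (25.7 and 26.7 FPKM) and COL1A1 (6.71 and 4.67 FPKM). For endothelial cells they were 1.3 to 1.54 and 0.396 to 0.562 FPKM, mostly ENG (0.91 and 0.226 FPKM). CD68, COL1A1 and ENG passed the test, where CD68 did not without 5aza replicate 2 (limma adjusted p = 0.0507) and ENG reached the filter only in 5aza libraries. The part of other cell types in the results was not tested. DNMT1, the maintenance methyltransferase that these drugs trap, had 47.6 ± 1.35 FPKM in 5aza libraries, against 64 ± 10.4 FPKM in control libraries (log2 fold change -0.41, limma adjusted p = 0.0236), where ± is the SD over 3 libraries here and below. That call was lost without, in turn, 5aza replicate 1 (0.0679), 5aza replicate 2 (0.0558), 5aza replicate 3 (0.0692), control replicate 2 (0.0539) and with no variance trend (0.0629). DNMT3A and DNMT3B did not pass the test (log2 fold changes 0.20 and -0.08), nor did ACTB (-0.11) and GAPDH (-0.07), whose signs both turn once the expression trend is removed; that of GAPDH also turns under quantile normalization. DNMT3A passed with no variance trend (0.0355) and ACTB without control replicate 3 (0.0479).

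Summed over the 37 genes, receptor genes came to 392.0, 389 and 391.8 FPKM in 5aza libraries and 398.7, 412.5 and 398.4 FPKM in control libraries. The sums of all 5aza libraries lay slightly lower, but so did those of the whole table. These were 577735 to 592051 FPKM in 5aza and 601916 to 628399 FPKM in control libraries, so a lower receptor share cannot be read from the sums. The highest means were of NR2F2 (80.1 and 70.5 FPKM in 5aza and control libraries), ESRRA (44.0 and 44.9 FPKM) and NR2F1 (26.2 and 41.1 FPKM). Behind them NR1D2, RARG, RXRA and NR1D1 lay between 21.4 and 25.2 FPKM in 5aza libraries and between 25.0 and 26.7 FPKM in control libraries, and in control libraries RARG, RXRA and NR1D1 did not differ beyond their spread. Over all libraries, 13 genes averaged 10 FPKM or more, 10 lay between 1 and 10 FPKM, and 14 lay under 1 FPKM, of which 6 were under 0.1 FPKM.

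**Figure D1:**
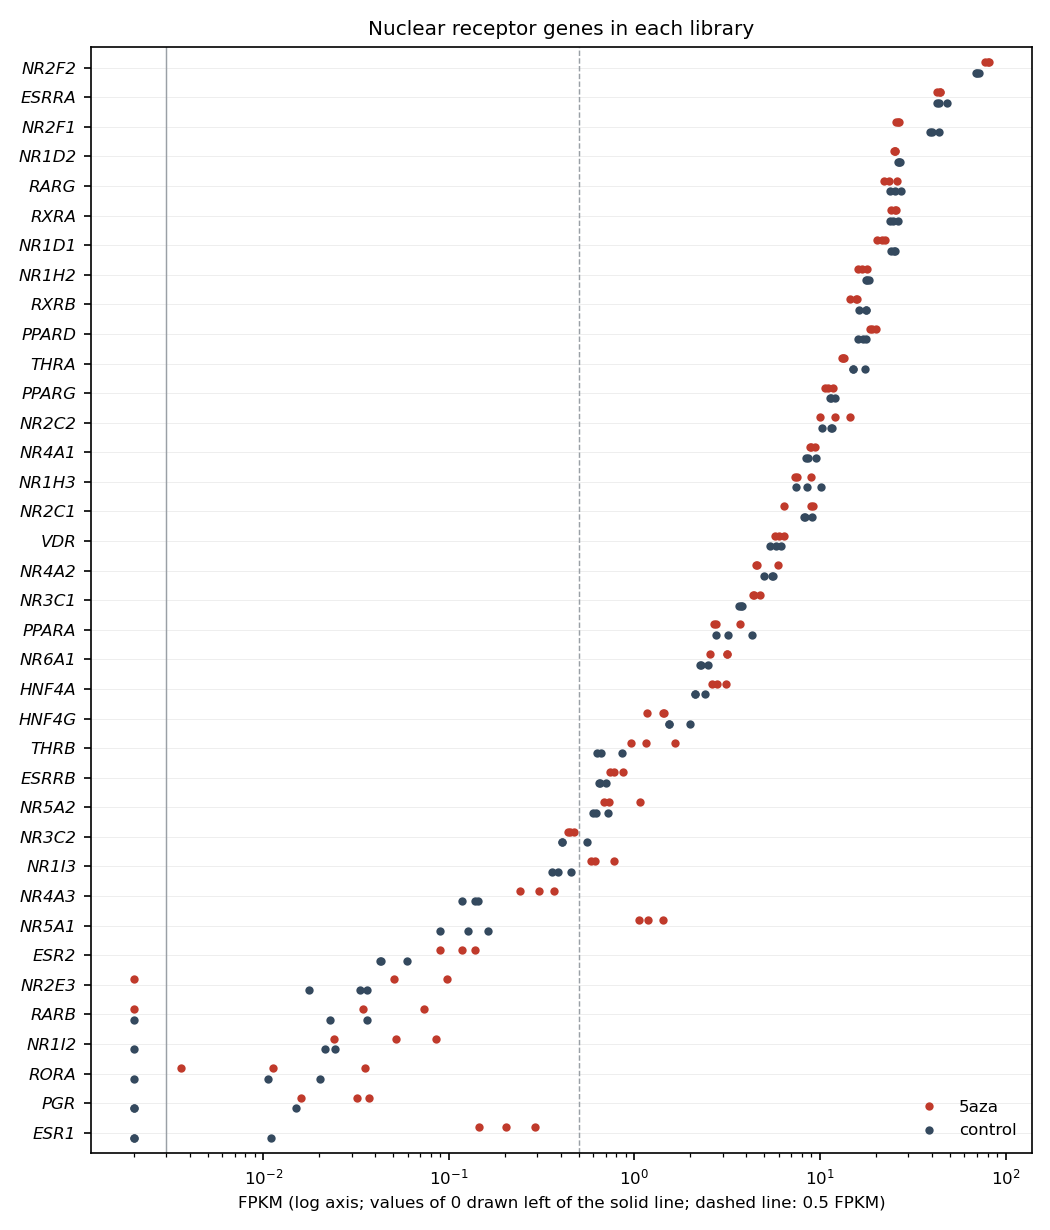
FPKM of each of the 37 nuclear receptor genes in each library (log axis), with 5aza libraries in red above control libraries in dark blue, ordered by the control mean. NR2F2 is highest at 78 to 81.7 FPKM in 5aza and 69.4 to 71.9 FPKM in control libraries, and for NR5A1 and ESR1 the 5aza points stand far right of the control points.

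Of the 37 genes, 28 reached 0.5 FPKM in at least 3 libraries and were tested, and 9 were not. Of the 28, 4 rose, 3 fell and 21 did not pass the test (limma on log2(FPKM + 0.1), Benjamini-Hochberg adjusted p under 0.05 over all 12360 genes tested). Among all genes tested, 23.7% passed, 10.6% upward and 13.1% downward, so the receptor counts lie near that background. NR5A1, NR2F2, PPARD and NR3C1 rose, and NR2F1, NR1D1 and THRA fell. Every 5aza library lay above every control library in 9 tested receptor genes and below in 6, against 19.6% and 22.6% of all genes tested (42.2% in either direction). The median log2 fold change was -0.01 over the 28 receptor genes and -0.01 over all genes tested. In bulk samples, fewer cells of a type and less RNA per cell cannot be told apart. NR5A1 and NR1I3 reached the filter only in 5aza libraries, so a difference was built into their choice.

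Fold sizes were small. In 22 of the 28 genes (78.6%) the log2 fold change lay within 0.3 of 0, as in 83.5% of all genes tested, and 1 gene, NR5A1, changed by 1 or more, as did 2.55% of all. Among genes averaging 20 FPKM or more, 2 of 7 receptor genes fell (NR2F1 and NR1D1) and 1 rose (NR2F2), where 26.4% of all such genes fell and 8.53% rose. Among those under 1 FPKM, 1 of 5 receptor genes rose, where 19.5% of all such genes rose and 0.532% fell. That gene was NR5A1, which reached the filter only in 5aza libraries. Rises made up 44.7% of all calls, 59.3% once fold changes were corrected for their trend on expression level, and 54.9% with no filter on low values. With that trend corrected, 3 receptor genes rose and 3 fell, and with no filter 5 rose and 3 fell. Leaving out a library lowered the count of rises to 2 without 5aza replicate 3, control replicate 1 or control replicate 3, and the count of falls to 1 without control replicate 2 and to 2 without any 1 of the 5aza libraries.

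**Figure D2:**
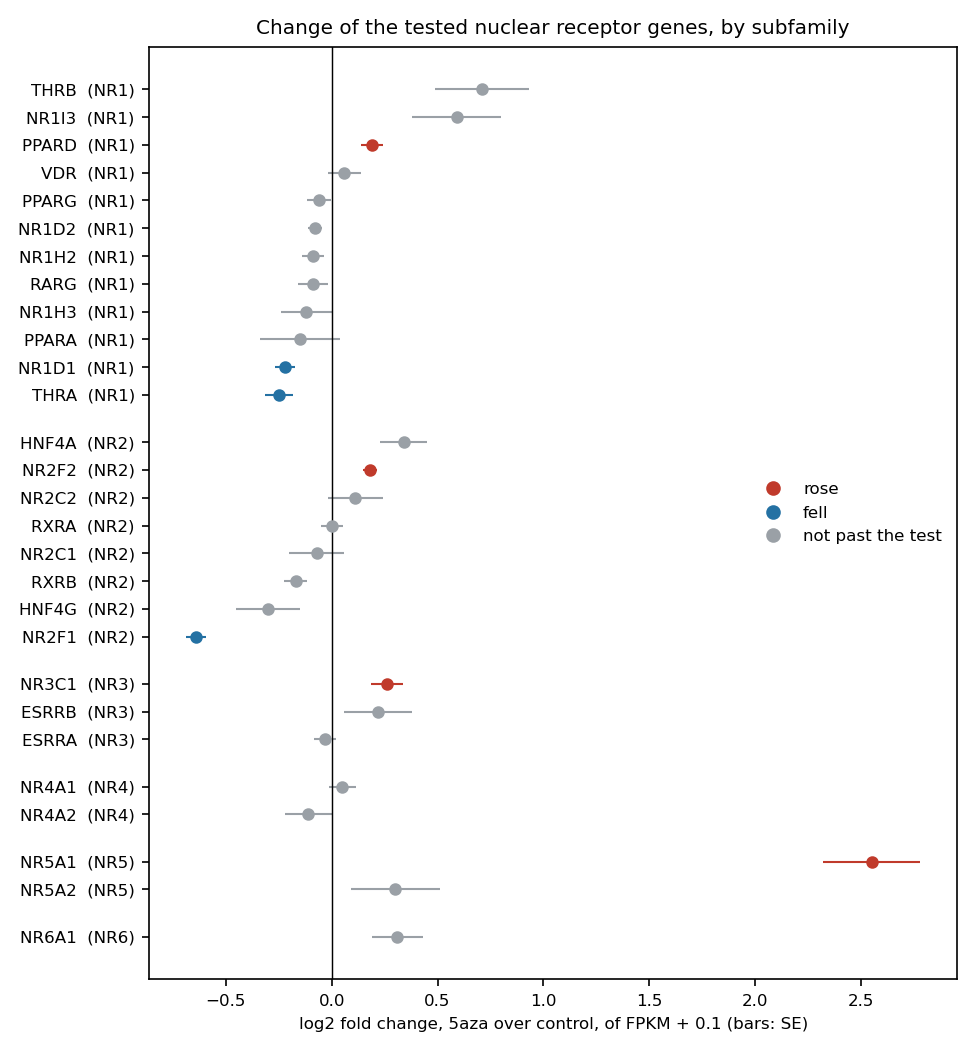
Log2 fold change of 5aza over control with its SE for the 28 tested nuclear receptor genes, grouped by subfamily, in red where the gene rose, blue where it fell and grey where it did not pass the test. NR5A1 stands at 2.55, and the others lie between -0.64 (NR2F1) and 0.71 (THRB).

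CpG dinucleotides, the sites that DNA methyltransferases modify, were counted in RefSeq promoter windows of 300 bases (250 before to 50 after the start, GRCh38.p14). Windows were found for 34 of the 37 genes, and 23 of them start within 1000 bases of the outermost start of the gene in GENCODE. Many receptor genes have several starts, such as 13 for ESR1 and 16 for NR3C1, and which start HCT116 cells use was not tested. The receptor windows held 0 to 65 CpGs with a median of 16.5, against a median of 24.0 over the 12221 genes of the table with a window. At least 15 CpGs were present in 19 of the 34 windows (55.9%) and in 73.5% of all. The 4 genes that rose held 14 to 31 CpGs, the 3 that fell 12 to 46, the 18 that did not pass 0 to 65, and the 9 that were not tested 1 to 38. The ranges of rising and falling genes overlap. The receptor half-site AGGTCA, on either strand (TGACCT on the other), was found in 3 of 34 receptor windows (8.82%) and in 10.6% of all windows.

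The windows of 4 genes are shown: NR5A1 rose the most, ESR1 was at or near 0 in control libraries, and NR2F1 and NR1D1 fell. They lie at chr9:124507350-124507649 (minus strand) with 14 CpGs, chr6:151656422-151656721 (plus strand) with 4, chr5:93582972-93583271 (plus strand) with 12 and chr17:40100540-40100839 (minus strand) with 24, each with its start 2 to 136 bases from the outermost GENCODE start. The sequences are RefSeq's, read 5′ to 3′ along the gene, and capitals mark CpG.
NR5A1: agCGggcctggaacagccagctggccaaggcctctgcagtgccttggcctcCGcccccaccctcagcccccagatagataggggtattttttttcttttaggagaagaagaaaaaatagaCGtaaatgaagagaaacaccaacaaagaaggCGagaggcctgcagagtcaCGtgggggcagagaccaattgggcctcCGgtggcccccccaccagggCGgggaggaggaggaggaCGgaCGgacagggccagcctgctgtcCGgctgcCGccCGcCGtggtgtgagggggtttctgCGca
ESR1: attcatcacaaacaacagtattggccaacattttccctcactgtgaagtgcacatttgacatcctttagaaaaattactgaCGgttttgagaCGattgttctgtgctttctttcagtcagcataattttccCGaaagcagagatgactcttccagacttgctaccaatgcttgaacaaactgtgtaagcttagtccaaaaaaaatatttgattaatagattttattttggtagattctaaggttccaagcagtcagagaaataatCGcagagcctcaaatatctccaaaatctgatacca
NR2F1: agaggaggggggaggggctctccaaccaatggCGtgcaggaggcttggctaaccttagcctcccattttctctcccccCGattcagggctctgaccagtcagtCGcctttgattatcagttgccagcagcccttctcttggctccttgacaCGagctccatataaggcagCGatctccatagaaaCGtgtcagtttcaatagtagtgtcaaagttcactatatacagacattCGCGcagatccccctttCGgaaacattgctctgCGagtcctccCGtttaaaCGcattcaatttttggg
NR1D1: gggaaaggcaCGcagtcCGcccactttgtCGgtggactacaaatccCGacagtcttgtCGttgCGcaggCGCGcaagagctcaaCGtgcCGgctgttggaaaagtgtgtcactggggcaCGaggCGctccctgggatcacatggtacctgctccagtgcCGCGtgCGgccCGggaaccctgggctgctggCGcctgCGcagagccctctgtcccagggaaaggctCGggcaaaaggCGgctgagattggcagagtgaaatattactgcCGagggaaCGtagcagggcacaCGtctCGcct
The ESR1 window is poor in G and C (36.3%), while those of NR5A1 (61.7%) and NR1D1 (63%) are rich and that of NR2F1 lies between (51.3%). ESR1 has 13 starts and the window covers its outermost. Whether this is the ESR1 promoter known to be methylated in carcinomas was not tested.

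**Figure D3:**
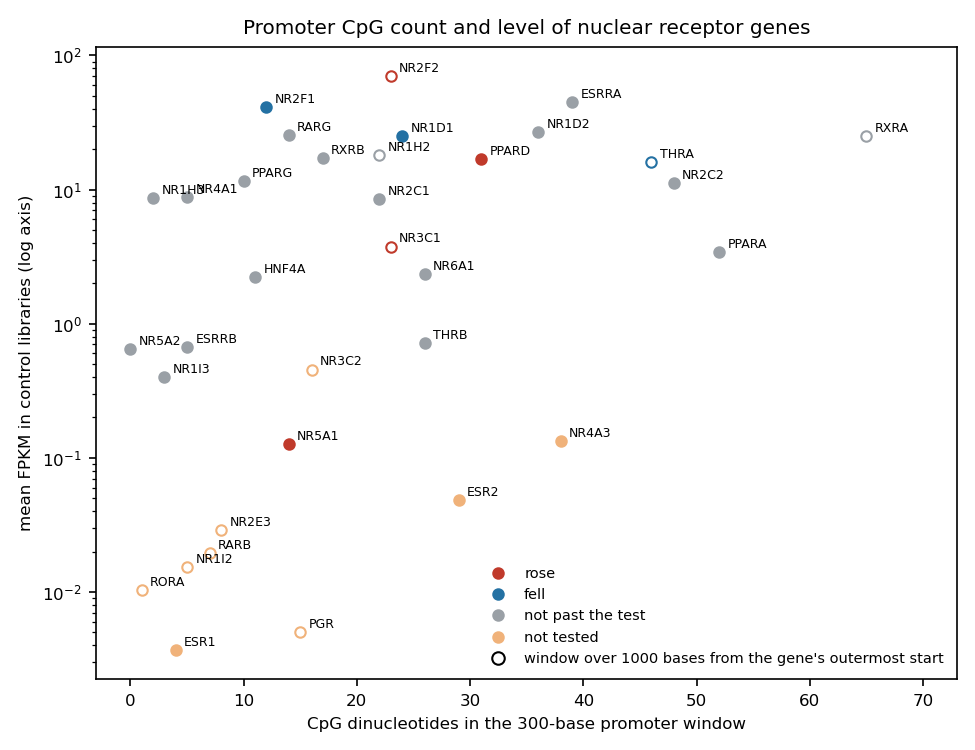
CpG dinucleotides per promoter window against the mean control FPKM (log axis) for the 34 nuclear receptor genes with a window, coloured by the call and drawn open where the window starts over 1000 bases from the outermost start of the gene. NR5A1 (14 CpGs) and NR2F1 (12 CpGs) have similar counts while the first rose and the second fell.

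NR5A1 (ENSG00000136931, chromosome 9, 124481236 to 124507430 of GRCh38) encodes steroidogenic factor 1, which drives the steroid-making genes of adrenal gland and gonad. It had 1.06, 1.18 and 1.42 FPKM in 5aza libraries, against 0.163, 0.0895 and 0.126 FPKM in control libraries. Each 5aza value was well above every control value, and the ratio of means was 9.68 (log2 fold change 2.55, SE 0.23, limma adjusted p = 4.42e-04). NR5A1 reached the filter only in 5aza libraries, so a difference was built into its choice. The log2 fold change was 0.98 with a pseudocount of 1 and 1.75 under quantile normalization, with adjusted p of 4.50e-04 to 0.00448 over the 13 alternatives in which it was tested. NR6A1, the germ cell nuclear factor that shuts off pluripotency genes as cells differentiate, is transcribed on the same strand and ends 9.85 kb before NR5A1 begins. NR6A1 had 2.54, 3.14 and 3.15 FPKM in 5aza libraries and 2.27, 2.5 and 2.28 FPKM in control libraries, with no overlap of the groups (log2 fold change 0.31, SE 0.12, limma adjusted p = 0.0935). It passed the test without 5aza replicate 1 (0.0472), while its log2 fold change was 0.20 under quantile normalization (0.261). The part of NR6A1 transcription in the NR5A1 values was not tested.

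NR5A2, or LRH-1, which works in liver, pancreas and intestinal crypts, did not pass the test. It had 1.07, 0.727 and 0.689 FPKM in 5aza libraries and 0.62, 0.72 and 0.599 FPKM in control libraries, which overlap (log2 fold change 0.30, SE 0.21, limma adjusted p = 0.347). NR5A1 lay above NR5A2 in 5aza replicates 2 and 3 and just below it in 5aza replicate 1, and it lay far below NR5A2 in each control library.

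Steroid-making enzymes are the best known targets of NR5A1 in adrenal and gonad. Of 17 steroidogenic enzyme genes with a row, 8 reached the filter. Rises numbered 3 and falls 1 among these 8 (all genes tested: 10.6% rose, 13.1% fell), and their median log2 fold change was 0.03. Rises numbered 1 without 5aza replicate 2 and under quantile normalization. AKR1C3, a ketosteroid reductase, had 1.07 ± 0.0989 FPKM in 5aza libraries, against 0.576 ± 0.0705 FPKM in control libraries (log2 fold change 0.79, limma adjusted p = 0.0145), a call lost without 5aza replicate 2 (0.0507) and under quantile normalization (0.0802). HSD17B1, which makes oestradiol, had 2.14 ± 0.192 FPKM in 5aza libraries, against 1.39 ± 0.166 FPKM in control libraries (log2 fold change 0.59, limma adjusted p = 0.0185), a call lost without, in turn, 5aza replicate 1 (0.0577), 5aza replicate 2 (0.0619), control replicate 1 (0.052) and under quantile normalization (0.0575). FDXR, the reductase that feeds electrons to mitochondrial steroid enzymes and is also a p53 target, rose to 77.4 ± 2.23 FPKM in 5aza libraries, against 56.1 ± 3.06 FPKM in control libraries (log2 fold change 0.46, limma adjusted p = 6.02e-04). HSD11B2, which inactivates cortisol, had 4.88 ± 0.129 FPKM in 5aza libraries, against 6.42 ± 1.04 FPKM in control libraries (log2 fold change -0.38, limma adjusted p = 0.0494). Its call was lost without, in turn, 5aza replicate 1 (0.094), 5aza replicate 2 (0.113), 5aza replicate 3 (0.127), control replicate 2 (0.116), control replicate 3 (0.1), with a pseudocount of 1 (0.05), with a pseudocount of 0.01 (0.0505), with no filter on low values (0.0703), with no variance trend (0.0801) and with the replicate block (0.0666).

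The COUP-TF genes moved in opposite directions. NR2F1 and NR2F2 encode closely related orphan receptors that often repress transcription and that pattern the nervous system, vessels and organs. NR2F1 (ENSG00000175745, chromosome 5, 93583224 to 93594615 of GRCh38) had 26.7, 26.4 and 25.6 FPKM in 5aza libraries, against 40.1, 39.4 and 43.8 FPKM in control libraries. All 5aza values lay far under the lowest control value (log2 fold change -0.64, SE 0.048, limma adjusted p = 1.74e-04). NR2F2 (ENSG00000185551, chromosome 15, 96325938 to 96340263 of GRCh38) had 80.5, 78 and 81.7 FPKM in 5aza libraries, against 69.4, 71.9 and 70.3 FPKM in control libraries, all 5aza values above all control values (log2 fold change 0.18, SE 0.032, limma adjusted p = 0.00652). The ratio of NR2F2 to NR2F1 was 3.02, 2.95 and 3.19 in 5aza libraries, against 1.73, 1.83 and 1.61 in control libraries. Their summed level was 107, 104 and 107 FPKM in 5aza libraries, against 109, 111 and 114 FPKM in control libraries. The 2 calls held under all 14 alternatives, with log2 fold changes of -0.67 to -0.60 for NR2F1 and 0.17 to 0.26 for NR2F2. NR2F1 shares 158 exonic bases with the antisense gene NR2F1-AS1, which was not analysed here, and the labels do not say whether the libraries mark strand.

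The other NR2 genes did not pass the test. RXRA, the common partner of NR1 receptors, had 24, 25.7 and 25.3 FPKM in 5aza libraries and 24.8, 26.4 and 23.8 FPKM in control libraries, which overlap (log2 fold change 0.00, SE 0.051, limma adjusted p = 0.996). RXRB, its paralogue, had 15.6, 14.5 and 15.8 FPKM in 5aza libraries and 16.3, 17.8 and 17.6 FPKM in control libraries. All RXRB values in 5aza libraries lay under those of control libraries (log2 fold change -0.17, SE 0.055, limma adjusted p = 0.0584). NR2C1 and NR2C2 encode orphan testicular receptors that repress embryonic globin genes. NR2C1 had 9.12, 6.38 and 8.98 FPKM in 5aza libraries and 8.17, 8.29 and 9.03 FPKM in control libraries. NR2C2 had 14.5, 9.99 and 12 FPKM in 5aza libraries and 11.5, 11.6 and 10.3 FPKM in control libraries. In both genes 5aza replicate 2 was the lowest of the 6 libraries, and the groups overlap. On the opposite strand, RXRB shares 6.2% of its exonic bases with SLC39A7, and NR2C2 shares 10.1% with MRPS25. SLC39A7 had 93 to 97.4 FPKM in 5aza libraries and 97.7 to 102 FPKM in control libraries. MRPS25 had 12.7 to 13.1 FPKM in 5aza libraries and 12.1 to 14.7 FPKM in control libraries. The part of SLC39A7 and MRPS25 in the receptor values was not tested. NR2E3, the photoreceptor receptor, reached at most 0.0973 FPKM and was not tested.

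HNF4A and HNF4G did not pass the test and had opposite signs. HNF4A, a regulator of gut and liver epithelium, had 2.62, 2.8 and 3.13 FPKM in 5aza libraries and 2.41, 2.13 and 2.12 FPKM in control libraries, with all 5aza values above the control values (log2 fold change 0.34, SE 0.11, limma adjusted p = 0.0572). It passed with no variance trend (0.0441), while its log2 fold change was 0.22 under quantile normalization (0.204). HNF4G, its intestinal paralogue, had 1.45, 1.17 and 1.42 FPKM in 5aza libraries and 1.99, 1.53 and 1.54 FPKM in control libraries, with all 5aza values below (log2 fold change -0.30, SE 0.15, limma adjusted p = 0.203). Of 21 HNF4A targets and partner factors in the table, 14 stayed under 0.5 FPKM in every library and 7 were tested, HNF4G among them. FOXA2, a pioneer factor of endoderm that reached the filter only in 5aza libraries, had 0.939 ± 0.313 FPKM in 5aza libraries, against 0.299 ± 0.0631 FPKM in control libraries (log2 fold change 1.35, limma adjusted p = 0.0118), a call lost under quantile normalization (0.0719). The other 6 did not pass (all genes tested: 10.6% rose, 13.1% fell).

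The thyroid hormone receptors had opposite signs. THRA (ENSG00000126351, chromosome 17, 40058290 to 40093867 of GRCh38) had 13.1, 13.5 and 13.3 FPKM in 5aza libraries, against 15, 17.5 and 15.1 FPKM in control libraries, with all 5aza values below the control values (log2 fold change -0.25, SE 0.065, limma adjusted p = 0.0308). That call was lost without, in turn, 5aza replicate 1 (0.0825), 5aza replicate 2 (0.0687), 5aza replicate 3 (0.079), control replicate 2 (0.0604) and with no variance trend (0.0582). THRB, the receptor of the pituitary feedback on thyroid hormone, had 1.65, 0.959 and 1.16 FPKM in 5aza libraries and 0.855, 0.66 and 0.631 FPKM in control libraries, with all 5aza values above (log2 fold change 0.71, SE 0.22, limma adjusted p = 0.0546). It passed with the replicate block (0.0355) and without 5aza replicate 2 (0.0454), while its log2 fold change was 0.39 with a pseudocount of 1 (0.0597) and 0.46 under quantile normalization (0.211).

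NR1D1, or REV-ERB alpha, a haem-binding repressor of the circadian clock, lies tail to tail with THRA on the opposite strand. The pair shares 263 exonic bases, which make up 9.5% of the exonic bases of NR1D1 and 3.8% of those of THRA, and without strand marking reads from this stretch cannot be told apart. NR1D1 (ENSG00000126368, chromosome 17, 40092787 to 40100725 of GRCh38) had 20.4, 21.6 and 22.3 FPKM in 5aza libraries, against 25.2, 25.5 and 24.2 FPKM in control libraries, with all 5aza values below the control values (log2 fold change -0.22, SE 0.047, limma adjusted p = 0.0143). It was lost without control replicate 2 (0.0521). NR1D2, its paralogue, had 25.3, 25.3 and 25.2 FPKM in 5aza libraries and 26.5, 27 and 26.6 FPKM in control libraries, a small gap with no overlap (log2 fold change -0.08, SE 0.034, limma adjusted p = 0.121). RORA, which activates through the sites that REV-ERBs repress, reached at most 0.0354 FPKM in any library.

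Of 19 tested clock genes, NR1D1 and NR1D2 among them, 4 fell and 15 did not pass (all genes tested: 10.6% rose, 13.1% fell). Their median log2 fold change was -0.04. With the replicate block 1 rose, and over the alternatives 2 to 4 fell, with 2 without 5aza replicate 2, control replicate 1 or control replicate 2. DBP, a clock output factor, fell to 18.9 ± 0.479 FPKM in 5aza libraries, against 23.5 ± 1.05 FPKM in control libraries (log2 fold change -0.31, limma adjusted p = 0.00344). PER1, a core repressor of the clock, had 35.1 ± 2.29 FPKM in 5aza libraries, against 41.8 ± 2.12 FPKM in control libraries (log2 fold change -0.25, limma adjusted p = 0.0182), a call lost without, in turn, 5aza replicate 1 (0.0503), 5aza replicate 2 (0.0519), control replicate 1 (0.0567) and with no variance trend (0.0509). TEF, which is related to DBP, had 6.96 ± 0.421 FPKM in 5aza libraries, against 8.26 ± 0.0919 FPKM in control libraries (log2 fold change -0.25, limma adjusted p = 0.0284). The TEF call was lost without, in turn, 5aza replicate 2 (0.0763), 5aza replicate 3 (0.0865), control replicate 1 (0.0674), control replicate 2 (0.0787), control replicate 3 (0.0691) and with the replicate block (0.0507).

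Among the PPARs, PPARD passed the test. PPARD, a broadly expressed fatty acid sensor (ENSG00000112033, chromosome 6, 35342558 to 35428191 of GRCh38), had 18.7, 20 and 19.1 FPKM in 5aza libraries, against 16.1, 17.6 and 17 FPKM in control libraries, with all 5aza values above the control values (log2 fold change 0.19, SE 0.05, limma adjusted p = 0.031). The call was lost without, in turn, 5aza replicate 2 (0.0934), 5aza replicate 3 (0.0763), control replicate 1 (0.0934), control replicate 3 (0.0609) and with no variance trend (0.0551). PPARG, the receptor of adipocyte differentiation that is also abundant in colon epithelium, had 11.8, 11 and 10.7 FPKM in 5aza libraries and 11.5, 11.3 and 12.1 FPKM in control libraries, which overlap (log2 fold change -0.06, SE 0.057, limma adjusted p = 0.516). PPARA, the hepatic regulator of fatty acid oxidation, had 2.75, 3.71 and 2.7 FPKM in 5aza libraries and 2.75, 4.3 and 3.2 FPKM in control libraries, which also overlap (log2 fold change -0.15, SE 0.19, limma adjusted p = 0.614). Of 14 tested PPAR targets 4 rose, 1 fell and 9 did not pass (all genes tested: 10.6% rose, 13.1% fell). Their median log2 fold change was 0.11. Rises numbered 2 without, in turn, control replicates 1 and 3, and with no variance trend. The rise not described below, of ACADVL, was lost under 7 of the 14 alternatives. ANGPTL4, a secreted inhibitor of lipoprotein lipase, rose to 6.6 ± 0.327 FPKM in 5aza libraries, against 4.67 ± 0.257 FPKM in control libraries (log2 fold change 0.49, limma adjusted p = 0.00367). PLIN2, a lipid droplet coat protein, rose to 21 ± 1.34 FPKM in 5aza libraries, against 15.2 ± 0.286 FPKM in control libraries (log2 fold change 0.47, limma adjusted p = 0.00124). CPT1A, an enzyme of fatty acid entry into mitochondria, had 38.5 ± 2.83 FPKM in 5aza libraries, against 33.6 ± 0.956 FPKM in control libraries (log2 fold change 0.19, limma adjusted p = 0.043), a call lost without, in turn, 5aza replicate 2 (0.0841), 5aza replicate 3 (0.0768), control replicate 1 (0.074), control replicate 2 (0.0965), control replicate 3 (0.106), with no filter on low values (0.0539) and with no variance trend (0.0908). ACSL3, an acyl-CoA synthetase, fell to 45.8 ± 1.09 FPKM in 5aza libraries, against 60.6 ± 1.86 FPKM in control libraries (log2 fold change -0.41, limma adjusted p = 4.08e-04).

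**Figure D4:**
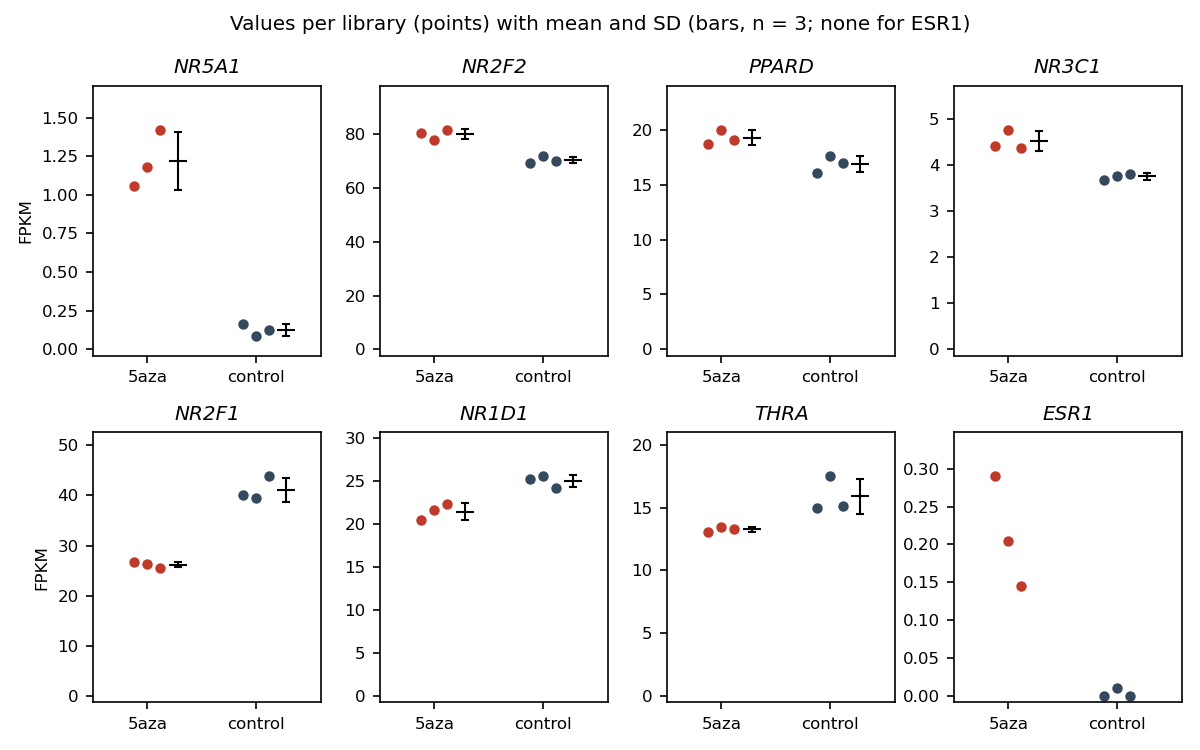
FPKM per library, with mean and SD over 3 libraries, for the 7 nuclear receptor genes that passed the test and for ESR1, which was not tested and has no mean drawn; 5aza is left of control in each panel. In each panel the groups do not overlap, with 1.06 to 1.42 FPKM in 5aza against 0.0895 to 0.163 FPKM in control for NR5A1.

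The LXR genes were not called. NR1H2, or LXR beta, had 17.9, 16 and 16.8 FPKM in 5aza libraries and 17.9, 17.8 and 18.3 FPKM in control libraries, with 1 5aza library at the level of the control libraries (log2 fold change -0.09, SE 0.051, limma adjusted p = 0.239). NR1H3, or LXR alpha, had 7.55, 8.94 and 7.34 FPKM in 5aza libraries and 8.52, 10.1 and 7.41 FPKM in control libraries, which overlap (log2 fold change -0.12, SE 0.12, limma adjusted p = 0.523). Of 9 tested LXR and FXR targets 2 rose, 2 fell and 5 did not pass (all genes tested: 10.6% rose, 13.1% fell). ABCA1, the cholesterol exporter, which reached the filter only in 5aza libraries, had 0.843 ± 0.0927 FPKM in 5aza libraries, against 0.358 ± 0.034 FPKM in control libraries (log2 fold change 1.04, limma adjusted p = 0.00805), a call lost under quantile normalization (0.0697). MYLIP, the ligase that degrades the LDL receptor, had 5.27 ± 0.22 FPKM in 5aza libraries, against 4.27 ± 0.271 FPKM in control libraries (log2 fold change 0.30, limma adjusted p = 0.0304). The MYLIP call was lost with any 1 of the 6 libraries left out (0.0522 to 0.0902), under quantile normalization (0.0725) and once the expression trend was removed (0.0567). SREBF1, a regulator of lipid synthesis, fell to 55.9 ± 2.14 FPKM in 5aza libraries, against 76 ± 2.61 FPKM in control libraries (log2 fold change -0.44, limma adjusted p = 4.59e-04). ABCC2, an apical exporter of conjugates, fell to 18.8 ± 0.414 FPKM in 5aza libraries, against 24.3 ± 2.09 FPKM in control libraries (log2 fold change -0.36, limma adjusted p = 0.00638).

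RARG, the retinoic acid receptor of epithelia, had 22.1, 25.9 and 23.6 FPKM in 5aza libraries and 27.2, 25.4 and 23.8 FPKM in control libraries, which overlap (log2 fold change -0.09, SE 0.07, limma adjusted p = 0.37). RARB was listed at 0, 0.0345 and 0.0738 FPKM in 5aza libraries and at 0, 0.0228 and 0.0361 FPKM in control libraries. These values overlap and lie near 0, so no change of RARB was detectable. Of 12 tested genes of retinoid handling and response, 5 rose, 1 fell and 6 did not pass (all genes tested: 10.6% rose, 13.1% fell). Their median log2 fold change was 0.21. TGM2, a transglutaminase induced by retinoic acid in many cells, rose to 19.8 ± 1.4 FPKM in 5aza libraries, against 8.8 ± 0.84 FPKM in control libraries (log2 fold change 1.16, limma adjusted p = 1.57e-04). ALDH1A3, which makes retinoic acid, rose to 83.8 ± 0.573 FPKM in 5aza libraries, against 59 ± 1.03 FPKM in control libraries (log2 fold change 0.51, limma adjusted p = 4.27e-05). RDH11, a retinal reductase, had 72.8 ± 2.15 FPKM in 5aza libraries, against 81.8 ± 2.36 FPKM in control libraries (log2 fold change -0.17, limma adjusted p = 0.015), a call lost without, in turn, 5aza replicate 3 (0.0525), control replicate 1 (0.0539), once the expression trend was removed (0.118) and with no variance trend (0.0509).

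VDR, the vitamin D receptor, had 6.39, 6.02 and 5.69 FPKM in 5aza libraries and 6.17, 5.77 and 5.39 FPKM in control libraries, which overlap (log2 fold change 0.06, SE 0.078, limma adjusted p = 0.615). Of 5 tested vitamin D targets 3 rose and 2 did not pass (all genes tested: 10.6% rose, 13.1% fell). The 2 were CYP24A1 and ORM1. CYP24A1 had 83.7 and 78.1 FPKM in 5aza and control libraries (log2 fold change 0.1, limma adjusted p = 0.0763). ORM1 had 0.861 and 0.452 FPKM (log2 fold change 0.91, limma adjusted p = 0.271). CDKN1A, which is also the main arrest target of p53, rose to 263 ± 2.03 FPKM in 5aza libraries, against 101 ± 1.97 FPKM in control libraries (log2 fold change 1.38, limma adjusted p = 3.83e-07). KLK6, a kallikrein, rose to 32.5 ± 0.442 FPKM in 5aza libraries, against 27 ± 0.482 FPKM in control libraries (log2 fold change 0.27, limma adjusted p = 0.0019). SULT2B1, a sterol sulfotransferase, had 5.15 ± 0.433 FPKM in 5aza libraries, against 3.99 ± 0.294 FPKM in control libraries (log2 fold change 0.36, limma adjusted p = 0.0285), a call lost without, in turn, 5aza replicate 1 (0.0571), 5aza replicate 2 (0.0835), control replicate 1 (0.084), control replicate 3 (0.0642), under quantile normalization (0.0697) and once the expression trend was removed (0.0506).

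The xenobiotic receptors were low. NR1I3, or CAR, had 0.583, 0.774 and 0.611 FPKM in 5aza libraries and 0.455, 0.385 and 0.36 FPKM in control libraries, with all 5aza values above the control values (log2 fold change 0.59, SE 0.21, limma adjusted p = 0.0772). NR1I3 reached the filter only in 5aza libraries. It passed with no variance trend (0.0259), while its log2 fold change was 0.24 with a pseudocount of 1 (0.0898) and 0.096 under quantile normalization (0.793). NR1I3 shares 20% of its exonic bases with TOMM40L on the opposite strand, and without strand marking reads from this stretch cannot be told apart. TOMM40L had 6.2, 6.84 and 6.19 FPKM in 5aza libraries and 7.14, 7.11 and 5.91 FPKM in control libraries, well above NR1I3. Its part in the NR1I3 values was not tested. NR1I2, or PXR, was listed at 0.0847, 0.0516 and 0.0239 FPKM in 5aza libraries and at 0, 0.0216 and 0.0242 FPKM in control libraries. Of 6 tested PXR and CAR targets 3 rose and 3 did not pass (all genes tested: 10.6% rose, 13.1% fell). SLCO1B3, an organic anion transporter, rose to 5.33 ± 0.586 FPKM in 5aza libraries, against 3.62 ± 0.0857 FPKM in control libraries (log2 fold change 0.54, limma adjusted p = 0.00605). ABCC3, a basolateral exporter, rose to 7.75 ± 0.455 FPKM in 5aza libraries, against 5.74 ± 0.6 FPKM in control libraries (log2 fold change 0.43, limma adjusted p = 0.0131). ABCB1, the multidrug exporter, had 1.86 ± 0.132 FPKM in 5aza libraries, against 1.35 ± 0.147 FPKM in control libraries (log2 fold change 0.44, limma adjusted p = 0.0445), a call lost with any 1 of the 6 libraries left out (0.0525 to 0.123), with no filter on low values (0.0662), under quantile normalization (0.157), once the expression trend was removed (0.113) and with the replicate block (0.0596).

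ESR1 (ENSG00000091831, chromosome 6, 151656691 to 152129619 of GRCh38), oestrogen receptor alpha, was listed at 0.29, 0.204 and 0.145 FPKM in 5aza libraries, against 0, 0.011 and 0 FPKM in control libraries. All 5aza values were above all control values. It never reached 0.5 FPKM and was not tested. With no filter on low values its log2 fold change was 1.57 (SE 0.20, limma adjusted p = 0.00301), on a scale set by the pseudocount. Over the whole table, 755 to 801 genes stood at 0 FPKM in 5aza libraries and 1663 to 1761 in control libraries. Values above 0 were thus more common in 5aza libraries in general, not only in receptor genes. ESR2, oestrogen receptor beta, had 0.0894, 0.138 and 0.117 FPKM in 5aza libraries and 0.0432, 0.0424 and 0.0597 FPKM in control libraries, again with no overlap (limma adjusted p = 0.0534 with no filter). PGR, the progesterone receptor and an oestrogen target, reached at most 0.0372 FPKM. Of 11 tested oestrogen and progesterone targets 5 rose, 1 fell and 5 did not pass (all genes tested: 10.6% rose, 13.1% fell). Their median log2 fold change was 0.23. KRT13, a keratin of stratified epithelium that reached the filter only in 5aza libraries, had 1.32 ± 0.31 FPKM in 5aza libraries, against 0.26 ± 0.111 FPKM in control libraries (log2 fold change 2.00, limma adjusted p = 0.00298). SERPINA1, alpha-1-antitrypsin, rose to 5.62 ± 0.42 FPKM in 5aza libraries, against 1.91 ± 0.292 FPKM in control libraries (log2 fold change 1.52, limma adjusted p = 2.77e-04). CA12, a carbonic anhydrase, had 3.12 ± 0.213 FPKM in 5aza libraries, against 2.1 ± 0.288 FPKM in control libraries (log2 fold change 0.56, limma adjusted p = 0.0165), a call lost without 5aza replicate 2 (0.0568). MYB, a proto-oncogene, fell to 2.09 ± 0.0245 FPKM in 5aza libraries, against 3 ± 0.15 FPKM in control libraries (log2 fold change -0.50, limma adjusted p = 0.00769).

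NR3C1, the glucocorticoid receptor (ENSG00000113580, chromosome 5, 143277931 to 143435512 of GRCh38), had 4.41, 4.76 and 4.37 FPKM in 5aza libraries, against 3.67, 3.77 and 3.81 FPKM in control libraries, with all 5aza values above the control values (log2 fold change 0.26, SE 0.075, limma adjusted p = 0.0414). The call was lost with any 1 of the 6 libraries left out (0.0728 to 0.115), with no filter on low values (0.0591), under quantile normalization (0.149), once the expression trend was removed (0.0883) and with the replicate block (0.0699). NR3C2, the mineralocorticoid receptor, had 0.438, 0.45 and 0.475 FPKM in 5aza libraries and 0.552, 0.407 and 0.405 FPKM in control libraries, which overlap. Of 18 tested glucocorticoid targets 5 rose, 4 fell and 9 did not pass (all genes tested: 10.6% rose, 13.1% fell). Their median log2 fold change was 0.09. Falls numbered 2 without, in turn, 5aza replicate 2 and control replicate 1, and with no variance trend. LCN2, lipocalin 2, rose to 9.47 ± 0.294 FPKM in 5aza libraries, against 0.428 ± 0.159 FPKM in control libraries (log2 fold change 4.22, limma adjusted p = 1.41e-05). Its control values were 0.611, 0.335 and 0.337 FPKM, so LCN2 passed the filter through its 5aza libraries. SGK1, a salt-regulating kinase, rose to 5.57 ± 0.411 FPKM in 5aza libraries, against 2.64 ± 0.314 FPKM in control libraries (log2 fold change 1.05, limma adjusted p = 6.78e-04). NFKBIA, the NF-kappaB inhibitor, rose to 30.9 ± 0.812 FPKM in 5aza libraries, against 18.8 ± 1.16 FPKM in control libraries (log2 fold change 0.72, limma adjusted p = 1.67e-04). LCN2 and NFKBIA are also known targets of NF-kappaB. FKBP5, a chaperone cofactor and classic glucocorticoid target, fell to 34.9 ± 0.557 FPKM in 5aza libraries, against 41.9 ± 0.936 FPKM in control libraries (log2 fold change -0.27, limma adjusted p = 0.00189), and PER1 is also in this list. RGS2, a G protein regulator, had 15.3 ± 1.25 FPKM in 5aza libraries, against 18.1 ± 0.992 FPKM in control libraries (log2 fold change -0.24, limma adjusted p = 0.0415), a call lost without, in turn, 5aza replicate 2 (0.119), 5aza replicate 3 (0.12), control replicate 1 (0.122), control replicate 2 (0.0888), control replicate 3 (0.0514), with no filter on low values (0.0536), under quantile normalization (0.0531), once the expression trend was removed (0.0583) and with no variance trend (0.0786).

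The oestrogen-related receptors have no known steroid ligand, and ESRRA drives mitochondrial genes. ESRRA had 44.6, 44.6 and 42.8 FPKM in 5aza libraries and 43.6, 48.5 and 42.6 FPKM in control libraries, which overlap (log2 fold change -0.03, SE 0.052, limma adjusted p = 0.745). It shares 284 exonic bases, 9.4% of its own, with TRMT112 on the opposite strand. TRMT112, a methyltransferase cofactor, had 210, 206 and 199 FPKM in 5aza libraries and 249, 261 and 232 FPKM in control libraries, and its part in the ESRRA values was not tested. ESRRB had 0.869, 0.777 and 0.735 FPKM in 5aza libraries and 0.703, 0.648 and 0.65 FPKM in control libraries, with no overlap (log2 fold change 0.22, SE 0.16, limma adjusted p = 0.375).

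The NR4A genes, which are induced early by many stimuli, were not called. NR4A1 had 8.87, 9.46 and 9 FPKM in 5aza libraries and 8.61, 8.38 and 9.49 FPKM in control libraries (log2 fold change 0.05, SE 0.065, limma adjusted p = 0.646). NR4A2 had 4.6, 4.5 and 5.91 FPKM in 5aza libraries and 5.49, 5.01 and 5.57 FPKM in control libraries (log2 fold change -0.11, SE 0.11, limma adjusted p = 0.542). In both the groups overlap. NR4A3 had 0.305, 0.368 and 0.243 FPKM in 5aza libraries and 0.118, 0.144 and 0.138 FPKM in control libraries, with no overlap. It was not tested under the filter, and with no filter its log2 fold change was 0.79 (SE 0.17, limma adjusted p = 0.0226).

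Receptors act through coregulators. Of 25 tested coactivators 3 rose, 7 fell and 15 did not pass (all genes tested: 10.6% rose, 13.1% fell). Their median log2 fold change was -0.03. All coactivators that fell except NCOA5 averaged 20 FPKM or more, a level at which 26.4% of all genes tested fell and 8.53% rose. HELZ2, a PPAR coactivator, rose to 8.18 ± 0.346 FPKM in 5aza libraries, against 6.05 ± 0.108 FPKM in control libraries (log2 fold change 0.43, limma adjusted p = 0.00285). NCOA4, also the receptor for ferritin breakdown, had 54.7 ± 1.22 FPKM in 5aza libraries, against 49.5 ± 0.664 FPKM in control libraries (log2 fold change 0.14, limma adjusted p = 0.017), a call lost without, in turn, 5aza replicate 1 (0.0526), 5aza replicate 2 (0.0568) and with no variance trend (0.0513). NCOA3, a steroid receptor coactivator, had 7.98 ± 0.489 FPKM in 5aza libraries, against 6.84 ± 0.0567 FPKM in control libraries (log2 fold change 0.22, limma adjusted p = 0.0443), a call lost with any 1 of the 6 libraries left out (0.0603 to 0.118), with no filter on low values (0.0545), under quantile normalization (0.0685), once the expression trend was removed (0.0704) and with the replicate block (0.0692). CCAR2, a regulator of SIRT1, fell to 86.8 ± 2.72 FPKM in 5aza libraries, against 112 ± 11.9 FPKM in control libraries (log2 fold change -0.37, limma adjusted p = 0.0093). NCOA5 fell to 17 ± 0.193 FPKM in 5aza libraries, against 19.8 ± 0.983 FPKM in control libraries (log2 fold change -0.22, limma adjusted p = 0.0145). PRMT1, an arginine methyltransferase, had 261 ± 6.53 FPKM in 5aza libraries, against 301 ± 11 FPKM in control libraries (log2 fold change -0.20, limma adjusted p = 0.0073), a call lost once the expression trend was removed (0.123). Coactivator falls numbered 4 under quantile normalization, 3 with the expression trend removed, and 4 without 5aza replicate 1 or control replicate 2, and coactivator rises numbered 1 without 5aza replicate 1 or 2.

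Of 20 tested corepressors 4 rose, 2 fell and 14 did not pass (all genes tested: 10.6% rose, 13.1% fell). Their median log2 fold change was 0.03. Rises numbered 1 without, in turn, 5aza replicate 2 and control replicate 2. TNIP1, which also restrains NF-kappaB signalling, rose to 22.4 ± 1.36 FPKM in 5aza libraries, against 15.2 ± 0.508 FPKM in control libraries (log2 fold change 0.56, limma adjusted p = 6.09e-04). LCOR, a ligand-dependent corepressor, had 12.1 ± 0.878 FPKM in 5aza libraries, against 10.0 ± 0.413 FPKM in control libraries (log2 fold change 0.27, limma adjusted p = 0.0237), a call lost without, in turn, 5aza replicate 2 (0.0603), control replicate 1 (0.0611), control replicate 2 (0.0783). SIN3B had 14.5 ± 0.394 FPKM in 5aza libraries, against 12.8 ± 0.247 FPKM in control libraries (log2 fold change 0.18, limma adjusted p = 0.0269), a call lost without, in turn, 5aza replicate 1 (0.0769), 5aza replicate 2 (0.0793), control replicate 1 (0.0713), control replicate 2 (0.0574), control replicate 3 (0.0686). SIN3A, like SIN3B a scaffold of histone deacetylases, had 23.4 ± 0.843 FPKM in 5aza libraries, against 28.5 ± 2.26 FPKM in control libraries (log2 fold change -0.28, limma adjusted p = 0.0156), a call lost without 5aza replicate 2 (0.0541). HDAC3, the deacetylase of the NCOR complex, had 51.5 ± 1.77 FPKM in 5aza libraries, against 56.4 ± 1.44 FPKM in control libraries (log2 fold change -0.13, limma adjusted p = 0.0419), a call lost without, in turn, 5aza replicate 2 (0.115), 5aza replicate 3 (0.122), control replicate 1 (0.0674), control replicate 2 (0.127), control replicate 3 (0.0743), under quantile normalization (0.162), once the expression trend was removed (0.254), with no variance trend (0.0951) and with the replicate block (0.0629).

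Steroid receptors are held ready by HSP90 and its cofactors. Of 16 tested receptor chaperones 8 fell and 8 did not pass, with a median log2 fold change of -0.11. All 16 averaged 20 FPKM or more, a level at which 26.4% of all genes tested fell and 8.53% rose. FKBP4, a cofactor of steroid receptor complexes, fell to 106 ± 3.16 FPKM in 5aza libraries, against 127 ± 2.85 FPKM in control libraries (log2 fold change -0.27, limma adjusted p = 0.0017). PPP5C, a phosphatase of the same complexes, fell to 55.6 ± 1.4 FPKM in 5aza libraries, against 65.5 ± 1.59 FPKM in control libraries (log2 fold change -0.24, limma adjusted p = 0.00315). Quantile normalization gave 5 falls and 1 rise, and with the expression trend removed there were 3 falls and 2 rises. The calls of FKBP4, FKBP5 and PPP5C held under all 14 alternatives.

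**Figure D5:**
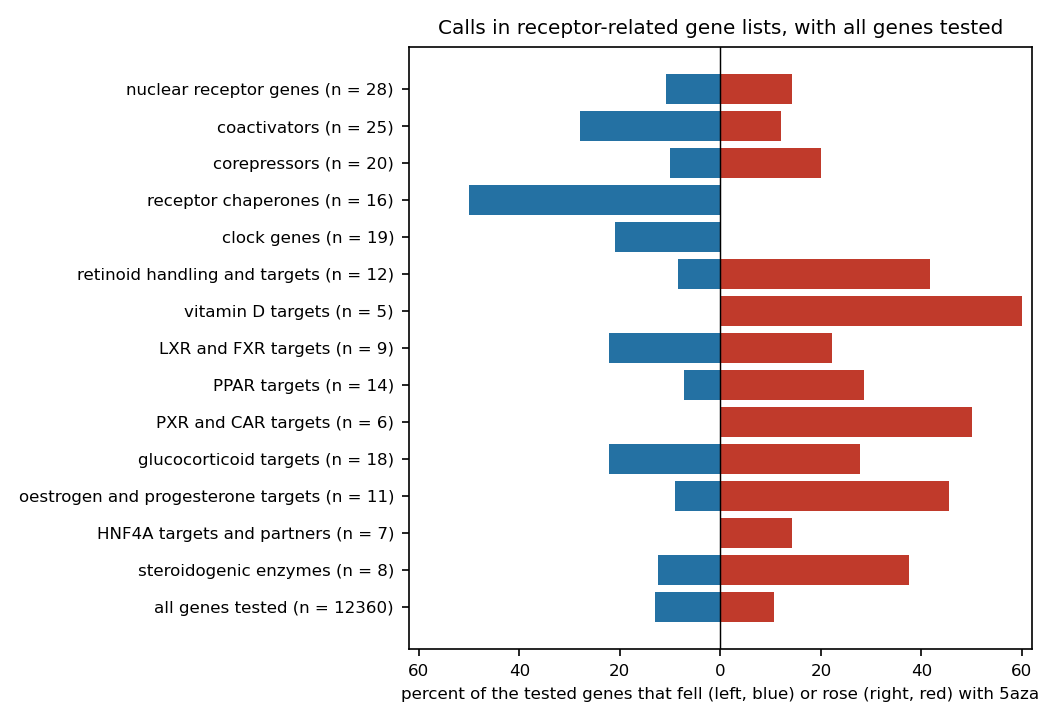
Percent of the tested genes of each list that fell (left, blue) or rose (right, red) with 5aza, with the number tested in brackets. Nuclear receptor genes (4 rises and 3 falls of 28) lie near all genes (10.6% and 13.1%). Receptor chaperones, all at 20 FPKM or more, show 8 falls of 16, where 26.4% of all genes tested at that level fell. Coactivators that fell, except NCOA5, also averaged 20 FPKM or more.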

How the data were processed

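RNA of 3 5aza and 3 control HCT116 libraries was measured by RNA-seq. The deposited values are FPKM per gene in 1 table, per the file headers. The submitters' processing notes name the tools STAR 2.5.1b, DESeq2 1.10.1 and HTSeq 0.6.0 and the builds Rnor_6.0 and GRCh38, without saying what each was used for or how FPKM was computed. Where an identifier was repeated (11 cases), its higher row by mean was used. Columns were matched to samples by their descriptions.

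A gene was tested if it reached 0.5 FPKM in 3 or more libraries. The test was limma 3.58.1 in R 4.3.3 on log2(FPKM + 0.1), which understates changes of low genes, with a variance trend, two-sided, and Benjamini-Hochberg adjustment over all genes tested. Low values of 1259 single-transcript genes lay within 0.1 of a whole read in 31.2% to 37.7% of cases at the best-fitting depth, against 20% by chance at any 1 depth, so whole reads were not recovered and no count test was run. Members, lists and tests were chosen with earlier results of these data known. The text gives all receptors and, per list, up to 3 rises and 3 falls with the largest changes. The values of 1 listed gene that this rule names are not reported here. Gene coordinates come from GENCODE 29 (GRCh38). The 14 alternatives changed the pseudocount (1 or 0.01), the filter (none, or a mean of 1 FPKM), the scaling (quantile, or the expression trend removed), the variance trend, a replicate block, or left out 1 library with the same genes tested.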

Additional observations from a re-analysis of the deposited data

How the results depend on the processing

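Each result was recomputed under 14 alternatives. Receptor rises numbered 2 to 4 and falls 1 to 3 with 1 library left out, and over all genes rises numbered 890 to 1078 and falls 940 to 1521 (1310 and 1619 with all 6 libraries). Falls over all genes were 983 with the expression trend removed and 1041 with no variance trend. Replicate numbers are shared, and the labels do not say whether same-numbered libraries are paired. Same-numbered 5aza and control libraries deviated from their group means with correlations of 0.0641, 0.0743 and 0.00336. Replicates 1 and 2 correlated best with their own number and replicate 3 did not. With 3 libraries per group these correlations cannot decide whether libraries were paired. The replicate block gave 4 receptor rises and 3 falls, and 1259 rises and 1673 falls over all genes.

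The log2 fold change of ESRRB was -0.10 under quantile normalization, and there it was -0.036 for NR5A2, 0.021 for ESRRA, 0.050 for GAPDH and 0.039 for HSPA8. With the expression trend removed it was 0.029 for ESRRA, 0.031 for ACTB, 0.028 for HSPA8, 0.081 for GAPDH and 0.0042 for HSP90AA1. With 1 library left out it ranged from -0.29 to 0.028 for PPARA, -0.034 to 0.041 for RXRA, -0.16 to 0.091 for NR2C1, -0.025 to 0.24 for NR2C2 and -0.063 to 0.029 for ESRRA. Each of these values or ranges turns the sign of the gene, and the cause was not tested. NR5A1 averages under 1 FPKM and has no value under that filter. Depth is unknown, so receptors near 0 FPKM have no floor.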
